A study of Camellia japonica and Camellia azalea with 81 samples.

Results

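Leaves of Camellia azalea labelled December were compared with leaves of the same species labelled November, by RNA sequencing. The comparison takes in 6 of the 81 libraries of the series, 3 labelled Dec and 3 labelled Nov, chosen by the month in the sample label. The series follows leaves of C. azalea and of Camellia japonica through 12 months and adds flower buds of C. japonica. The C. azalea table holds 36 leaf libraries, 3 per month. Both groups are described as young leaf, and the labels give no genotype, treatment, plant age, place or temperature for either of them. It is not stated whether a month's 3 libraries are 3 plants, or whether the Dec leaves were taken in the same year as the Nov leaves. The p-values below therefore measure the spread between libraries, which may be technical. For the limma p-values and their SE, that spread is pooled over the libraries of all 12 months and is not that of Dec and Nov alone.

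C. azalea is an evergreen shrub of the tea family from southern China. Among camellias it is known for flowering mainly in summer, whereas most species, C. japonica among them, flower in the cool season. Evergreen leaves stay on the plant through winter, and in woody plants generally falling temperature and short days change the expression of genes for photosynthesis, cold protection, growth and the circadian clock. The deposited tables identify genes by assembly IDs beginning with EVM and do not pair them with gene names, so no ID below is given a function. For the same reason, leaf markers and pathway genes could not be looked up, and the labelled tissue was not checked against them.

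The deposited values are TPM, a length-corrected measure in which values are shares of a fixed total per library. Where a few IDs take more of that total, every other ID is listed lower. The 6 libraries differed in this respect. A library's 10 leading IDs took up 16.02%, 13.6% and 40.4% of TPM in the libraries Dec 1, Dec 2 and Dec 3, against 7.21%, 8.69% and 6.54% in Nov 1, Nov 2 and Nov 3. The number of IDs at 1 TPM or more was 21360, 21842 and 18638 in the Dec libraries, against 23529, 23077 and 23531 in the Nov libraries. Neither measure overlapped between the months (exact two-sided permutation p = 0.1 for each, the smallest that 3 libraries against 3 allow). Across the 27492 IDs tested, r on log2(TPM + 1) was 0.952 to 0.968 between Dec libraries, 0.974 to 0.979 between Nov libraries and 0.898 to 0.940 between a Dec and a Nov library. The library Dec 3 stands apart from the other Dec libraries in its composition, so the counts of called IDs in C. azalea and of species differences are given with and without it. They are also given after median-of-ratios scaling, which divides a library by its median ratio to the average library.

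On deposited TPM, 4252 of 27492 IDs fell in Dec leaves relative to Nov leaves and 174 rose, which is 15.5% and 0.633% of the IDs tested (16.1% in all). An ID was called, here and below, at a limma adjusted p below 0.05 and a difference of at least 1 in log2(TPM + 1). After median-of-ratios scaling 1396 IDs were called lower and 695 higher, or 5.08% and 2.53% (7.61% in all). Without the library Dec 3 the deposited TPM gave 1412 lower and 161 higher calls, or 5.14% and 0.586% (5.72% in all). With scaling and Dec 3 left out there were 1011 lower and 512 higher calls (3.68% and 1.86%). IDs called lower therefore outnumbered those called higher under each of these 4 settings, but by very different margins.

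The median difference of all tested IDs was itself -0.54 (log2, Dec minus Nov) on deposited TPM, -0.31 without Dec 3 and -0.05 after scaling. Library by library, the median difference from the Nov mean was -0.36 in Dec 1, -0.28 in Dec 2 and -1.002 in Dec 3 on deposited TPM. After scaling these values were -0.05, -0.03 and -0.08. On the deposited scale the median of every Dec library thus lay below the Nov mean, and that of Dec 3 farthest. Every Dec library lay below every Nov library for 43.6% of IDs and above for 2.42% on deposited TPM, against 21.1% and 17.8% after scaling.

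**Figure D1:**
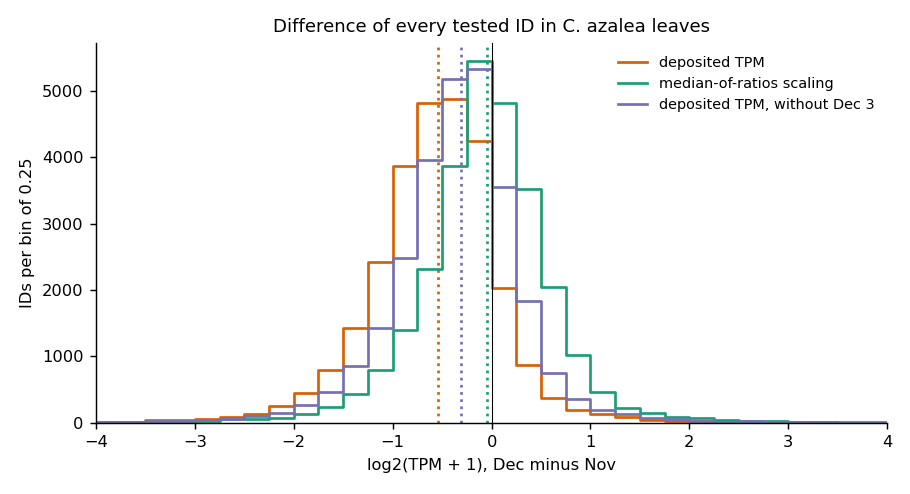
Number of IDs (y axis, bins of 0.25) by their difference in log2(TPM + 1), Dec minus Nov (x axis), for the IDs tested in C. azalea leaves under 3 settings, with dotted lines at the medians of all IDs tested. The x axis runs from -4 to 4, and the few IDs with larger falls or rises are not drawn. The curve for deposited TPM is centred at -0.54, the curve without Dec 3 at -0.31 and the curve after scaling at -0.05.

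The calls under the different settings were nested to a large extent. Over the IDs tested in each case, the 1396 IDs called lower after scaling were all among those called lower on deposited TPM, of which they made up 32.8%. Of the IDs called higher on deposited TPM, 168 of 171 were also called higher after scaling, which is 24.3% of the 691 IDs called higher there. Between deposited and scaled TPM, 0 IDs were called in opposite directions. Scaling divides all IDs of a library by the same number, so it shifts most differences the same way. The nesting and the 0 reversals between these scales follow largely from that and are no independent support for the calls. In all, 938 IDs were called lower and 130 higher under each of 3 settings (deposited TPM, scaling, and deposited TPM without Dec 3), or 3.41% and 0.473% of 27476 IDs. The remainder of the text describes mainly these 938 and 130 IDs.

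EVM0026928 had the largest rise among those that met the naming rule. It was listed at 71.1, 97.4 and 62.2 TPM in the Dec libraries, against 1.09, 0.791 and 1.64 TPM in the Nov libraries. All 3 Dec values lay far above all 3 Nov values, and 0 of the other 33 C. azalea libraries reached the lowest Dec value. The means were 76.9 ± 18.3 TPM in Dec and 1.17 ± 0.428 TPM in Nov (SD, n = 3 each). On the log2 scale Dec exceeded Nov by 5.16 ± 0.36 (SE), with a limma adjusted p of 4.4e-11. The difference was 5.68 after scaling and 5.29 without Dec 3. Through the year its month means were lowest in Jun, at 0.237 ± 0.137 TPM, and were 3.08, 5.32 and 8.38 TPM in Aug, Sep and Oct before the low value of Nov. Jan was second to Dec, at 28.2 ± 18.1 TPM. In leaves as bulk tissue, a change in the share of a cell type and a change in RNA per cell cannot be told apart, here or for any ID below.

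EVM0022027 was listed at 26.9, 88.2 and 46.8 TPM in the Dec libraries, against 1.75, 3.92 and 2.99 TPM in the Nov libraries. The Dec libraries varied among themselves more than those of EVM0026928, but again did not overlap with Nov, which the naming rule required. The log2 difference was 3.70 ± 0.53 (SE, n = 3 each, limma adjusted p = 1.3e-05), 4.30 after scaling and 3.72 without Dec 3. Outside Dec, EVM0022027 was at 42.6 ± 32.9 TPM in Jan, at 8.24 ± 8.37 TPM in Feb, below 1 TPM on average in each month from Mar to Sep, and listed at 0 TPM in all 3 Jul libraries. In Jan the libraries Jan 2 and Jan 3 held 43.1 and 75.2 TPM, against 9.45 TPM in Jan 1.

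EVM0008064 had the largest fall among those that met the naming rule. It was listed at 1.67, 1.27 and 0.844 TPM in the Dec libraries, against 354, 960.4 and 157 TPM in the Nov libraries. The Nov libraries differed among themselves by several-fold, and each still lay far above every Dec library. The means were 1.26 ± 0.411 TPM in Dec and 491 ± 419 TPM in Nov (SD, n = 3 each). Dec minus Nov was -7.40 ± 0.93 on the log2 scale (SE), with a limma adjusted p of 2.0e-06. The difference was -6.84 after scaling and -7.26 without Dec 3. Its Dec mean was the lowest of the 12 months, close to 1.37 TPM in Sep and 1.95 TPM in Oct. Its Nov mean was exceeded by that of Feb, at 1333 ± 766 TPM. Means of 366 TPM in Mar and 242 TPM in May stood on either side of 5.35 TPM in Apr.

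EVM0004647 was listed at 10.7, 6.94 and 8.26 TPM in the Dec libraries, against 1625, 2244 and 871 TPM in the Nov libraries. Here too the months lay far apart, with Nov 3 the lowest of the Nov libraries. The log2 difference was -7.27 ± 1.02 (SE, n = 3 each, limma adjusted p = 9.8e-06), -6.59 after scaling and -7.25 without Dec 3. Its means were 3607 ± 459 TPM in Feb, 2334 ± 260 TPM in Mar, 115 ± 17.5 TPM in Apr, 3541 ± 601 TPM in May and 92.7 ± 22.5 TPM in Jun. It was at 10.9 ± 2.45 TPM in Sep and 29.8 ± 3.62 TPM in Oct, and the Dec mean of 8.63 ± 1.90 TPM was again the lowest of the year. In Jan the library Jan 1 held 1390 TPM, against 3.17 and 3.88 TPM in Jan 2 and Jan 3.

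**Figure D2:**
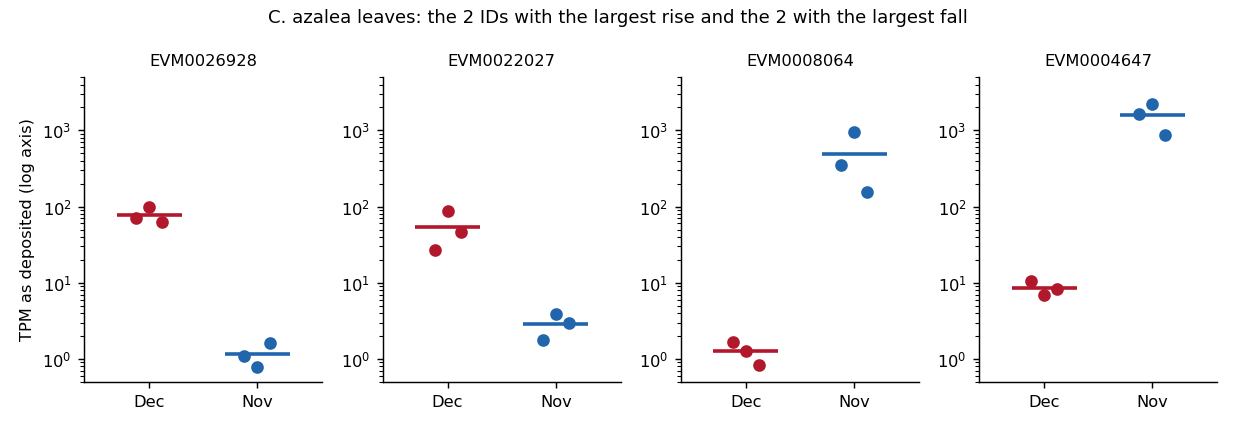
TPM as deposited (log axis) of the 4 named IDs in each Dec library (left) and Nov library (right) of C. azalea leaves, with the mean of the 3 libraries as a line. The Dec and Nov libraries do not overlap for any of the 4 IDs, which the naming rule required. Nov 3 is the lowest Nov library for EVM0008064 and EVM0004647.

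Falls of this size belonged to a small group of IDs. Of the 938 IDs called lower, 691 had a scaled log2 difference between -1 and -2, 216 between -2 and -4, and 31 of -4 or below. Their median difference was -1.53 after scaling, against -0.05 for all IDs tested. The 130 IDs called higher had a median scaled difference of 2.24, with 44 below 2, 82 between 2 and 4, and 4 of 4 or more. The median mean level of the 938 IDs was 3.00 TPM in Dec and 18.2 TPM in Nov. That of the 130 IDs was 33.4 TPM in Dec and 7.44 TPM in Nov. All 938 lower IDs and 128 of 130 higher IDs had groups that did not overlap on deposited TPM, where the shares over all IDs are 43.6% and 2.42%. Since the calls rest on the same values, nothing follows from these counts.

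The 31 IDs with the largest falls took up 1.63% to 3.75% of the TPM of the Nov libraries. This list was chosen by its values, so its totals in Dec and Nov are a description. Together the 31 IDs held 0.0373%, 0.0390% and 0.0278% of TPM in the Dec libraries, against 3.07%, 3.75% and 1.63% in the Nov libraries. Their mean levels ran from 0.0942 to 67.4 TPM in Dec and from 39.99 to 10063 TPM in Nov. Nov 3 was the lowest Nov library for all of them, with both Nov 1 and Nov 2 above Nov 3 for 31 of 31 IDs. Of the 938 IDs called lower, 468 had Nov 1 above Nov 3 and 429 had Nov 2 above Nov 3. None of the 31 (0 IDs) was among the 10 most abundant IDs of Dec 3. Those 10 all lay higher in Dec than in Nov, so this followed from how the 31 were chosen.

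The libraries of the other months did not enter the Dec minus Nov difference itself, but they did enter the estimate of the spread, the scaling and the filter on low values. In these months the total of the same 31 IDs alternated between high and low values, which need not hold for each ID. On scaled means among Jan to Oct, 13 of them were highest in Feb, 9 in Mar, 7 in Jun and 1 each in May and Jul. Together the 31 IDs held 3.19% to 5.88% of TPM in Feb, 2.98% to 4.50% in Mar, 0.256% to 0.349% in Apr and 2.54% to 3.25% in May. The total was 0.618% to 0.838% in Jun, 1.36% to 1.63% in Jul and 0.536% to 0.617% in Aug, and it reached 0.0739% to 0.169% in Sep and 0.151% to 0.376% in Oct. The libraries of Jan lay farthest apart. There the library Jan 1 held 1.73% and was the highest of the Jan libraries for 31 of 31 IDs, while Jan 2 and Jan 3 held 0.0713% and 0.0532%. Of the 938 IDs called lower, 699 were highest in Jan 1 among the Jan libraries. Jan 1 also correlated best with the library Apr 1 across IDs, and its mean r of 0.911 with its own month was the lowest of the 36 libraries. Without it, the Jan total lies nearest to that of the Dec libraries.

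The 86 IDs called higher with a scaled log2 difference of at least 2 had a different course. They held 1.45%, 2.03% and 1.25% of TPM in the Dec libraries, against 0.462%, 0.389% and 0.454% in the Nov libraries. Their total was 1.92% and 2.04% in Jan 2 and Jan 3 and 0.672% in Jan 1. It was lowest in Jun, at 0.135% to 0.155%, and lay between 0.595% and 0.778% in Oct, above every Nov library. Nov was thus a dip between Oct and Dec in this total, while for the total of the 31 IDs it was a peak. Both lists were chosen by their Dec and Nov values, which favours such a dip and such a peak. Nov was the lowest of 12 months for 13 of the 86 IDs (15.1%, against 7.29% of all IDs tested). It was the highest for 8 of the 31 IDs (25.8%, against 7.77%).

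**Figure D3:**
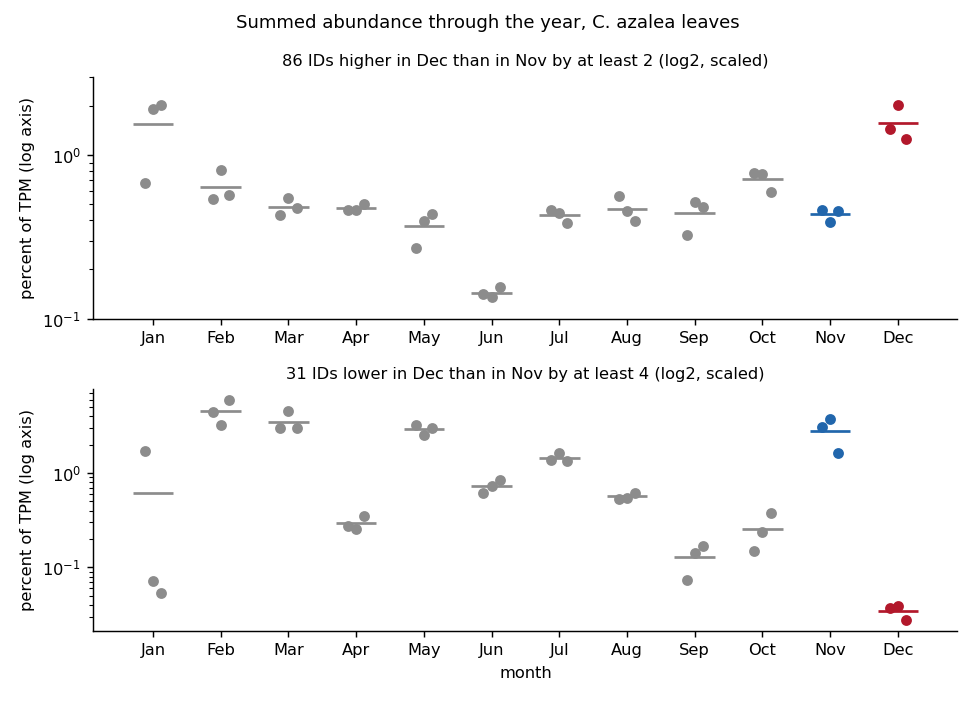
Summed share of TPM (percent, log axis) by month in the 36 C. azalea leaf libraries for the 86 IDs higher in Dec by at least 2 (upper panel) and the 31 IDs lower by at least 4 (lower panel) on the scaled log2 scale, with each library as a point and the month mean as a line. The 31 IDs hold 1.63% to 3.75% in Nov and 0.0278% to 0.0390% in Dec, and the 86 IDs share their high totals in Dec with Jan 2 and Jan 3.

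The place of Dec and Nov in the year was counted for both lists. On scaled month means, Dec was the lowest of 12 months for 588 of 938 IDs (62.7%), and Nov the highest for 275 (29.3%). Over all IDs tested these shares were 18.2% and 7.77%. Of the 130 higher IDs, Dec was the highest month for 85 (65.4%, against 14.2% of all IDs) and Nov the lowest for 25 (19.2%, against 7.29%). The values that chose these IDs also set these shares.

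The called IDs were also described by their levels in the remaining months, Jan to Oct. Of the 938 lower IDs, 319 (34.01%) had their highest scaled mean among those 10 months in Jun, against 11.3% of all IDs tested. Another 147 (15.7%, against 9.44%) were highest in Feb, and 27 (2.88%, against 14.9%) in Jan. Of the 130 higher IDs, 40 (30.8%) were highest in Jan, 26 (20%, against 10.4%) in Aug and 22 (16.9%, against 11.01%) in Mar, and 5 (3.85%) in Jun. On scaled means, Jun was thus the most frequent month among the lower IDs and Jan among the higher IDs. No test was made of these shares. On deposited TPM, where Jan is the highest month for 32.8% of all IDs, Jun took 13.9% of the 4252 lower calls (against 5.54% of all IDs) and Jan took 47.1% of the 174 higher calls. On that scale Jun was not the most frequent month among lower calls, since Feb took 18.2%, Jan 17.1%, Jul 16.5% and Apr 15.5%.

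**Figure D4:**
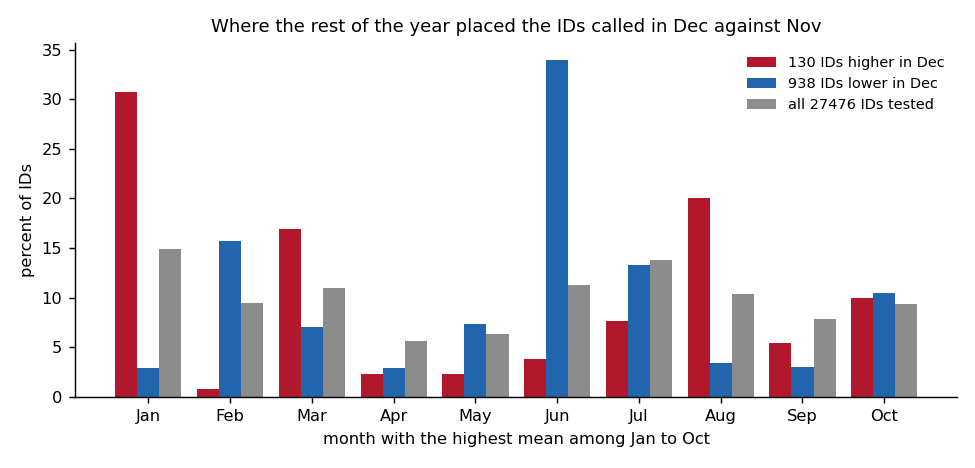
Percent of IDs (y axis) by the month of their highest scaled mean among Jan to Oct (x axis), for the 130 IDs called higher in Dec, the 938 called lower and all 27476 tested. Jun holds 34.01% of the lower IDs, against 11.3% of all IDs, and Jan holds 30.8% of the higher IDs, against 14.9% of all IDs.

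Calls were spread over low, middle and high levels. Over the Jan to Oct libraries, 267 of the 938 lower IDs had a mean below 5 TPM, 520 from 5 to 50 TPM and 151 of 50 TPM or more, which is 2.36%, 3.98% and 4.84% of the IDs tested at these levels. Of the 130 higher IDs, 31, 66 and 33 fell in these classes, or 0.275%, 0.505% and 1.06%. Differences of IDs at low levels are understated on a scale of log2(TPM + 1). Whether this shaped the shares by level was not tested.

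The months on either side were compared through Jan minus Oct, which shares no library with Dec against Nov. After scaling, the 130 higher IDs had a median Jan minus Oct difference of 0.25 (log2), and 86 of them (66.2%) were higher in Jan, against a median of 0.06 and 53.7% for all IDs. The 938 lower IDs had a median of -0.39, and 293 of them (31.2%) were higher in Jan. Without the library Jan 1 the medians were 0.44 and -0.65, against 0.03 for all IDs. The 31 IDs with the largest falls had a median of -0.18, which was -1.40 without Jan 1. On deposited TPM the medians were 0.67 and -0.05, against 0.40 for all IDs, so relative to all IDs the directions were the same on both scales. The Jan and Oct libraries were part of the fit that gave the calls.

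Among the most abundant IDs of Dec 3, EVM0010849 and EVM0006380 had the largest excess in Dec 3 over the other Dec libraries. EVM0010849 was listed at 43807, 30987 and 164197 TPM in Dec 1, Dec 2 and Dec 3, against 6015, 14375 and 1991 TPM in Nov 1, Nov 2 and Nov 3. EVM0006380 was listed at 24409, 19797 and 67065 TPM in the Dec libraries, against 3349, 7952 and 1206 TPM in the Nov libraries. For both IDs the Dec libraries lay above the Nov libraries, and neither was called, EVM0010849 having a log2 difference of 3.45 ± 1.36 (SE) and a limma adjusted p of 0.071. For EVM0006380 these were 3.33 ± 1.36 and, by limma, an adjusted p of 0.079.

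The 10 IDs most abundant in Dec 3 together held 14.7%, 11.1% and 40.4% of TPM in the Dec libraries, against 2.03%, 4.90% and 0.842% in the Nov libraries. They were chosen by their level in Dec 3, so these totals are a description. Each of the 10 lay higher in every Dec library than in every Nov library, as did 2.42% of all IDs on deposited TPM. Of the 10, 0 were called by limma on deposited or scaled TPM, where 0.633% and 2.53% of all IDs were called higher. Their total differed by 2.37 to 89.7 times between libraries of the same month. It was 0.567% in Mar 2 and 17.4% and 18.98% in Mar 1 and Mar 3, and it was 34.6% in Sep 1. Their total thus varied widely within months, and a larger share for them means smaller deposited TPM for all other IDs. With the 10 IDs left out and the rest rescaled to a fixed total, a check chosen after seeing the data, 2554 IDs were called lower and 346 higher. Their part in the number of IDs called was not tested beyond this check.

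**Figure D5:**
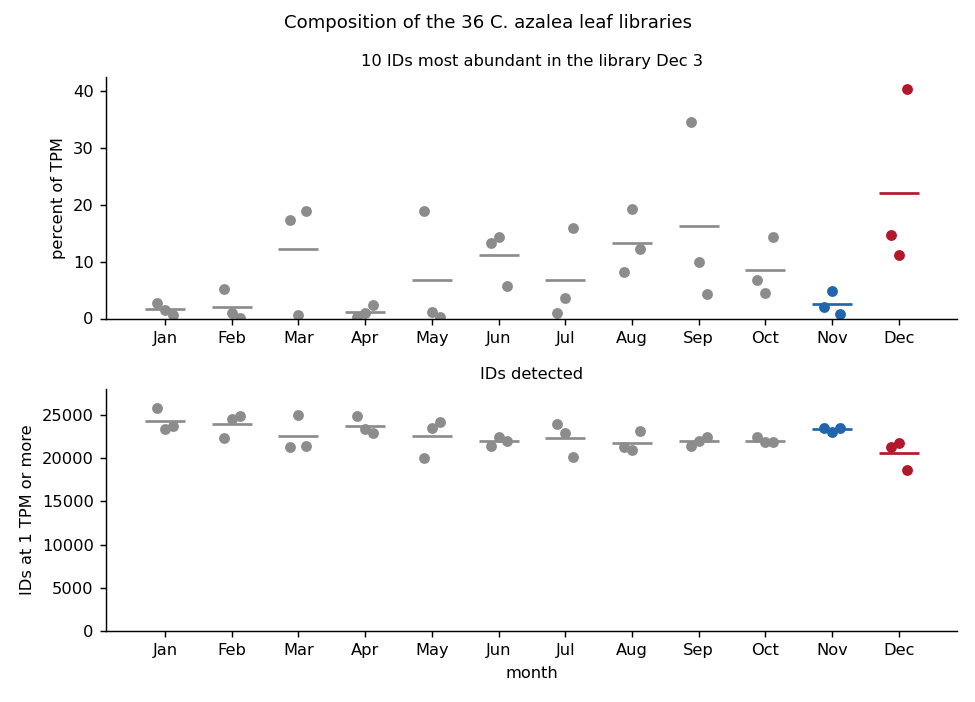
Share of TPM held by the 10 IDs most abundant in Dec 3 (upper panel, percent) and number of IDs at 1 TPM or more (lower panel) in the 36 C. azalea leaf libraries by month, with each library as a point and the month mean as a line. Dec 3 has the highest share (40.4%) and the fewest IDs (18638), and Mar, May, Jul and Sep also hold libraries that differ widely within the month.

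The spread between libraries differed between the months. The median SD over IDs was 0.49 on the log2 scale in Dec and 0.20 in Nov on deposited TPM, and Nov had the lowest value of the 12 months. After scaling they were 0.31 and 0.17.

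Leaves of C. japonica gave the same months in a table normalized on its own. There, limma called 1 of 29156 IDs between Dec and Nov (0.00343%) on deposited TPM, with 1620 IDs at an unadjusted p below 0.05. That ID, EVM0014233, averaged 29.5 ± 29.03 TPM in its Dec libraries and 272 ± 198 TPM in its Nov libraries (SD, n = 3 each). The log2 difference was -3.36 ± 0.55 (SE), with a limma adjusted p of 0.038. It also fell in C. azalea, to 25.2 ± 11.04 TPM in Dec against 134 ± 49.1 TPM in Nov, a log2 difference of -2.39 (limma adjusted p = 6.9e-05). After scaling 0 IDs were called by limma in C. japonica, with 1667 at an unadjusted p below 0.05, and without the library labelled Dec leaf 1 on deposited TPM there were 86 calls.

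The direction of the C. azalea IDs was also counted in C. japonica. After scaling, 75.4% of the 882 lower IDs tested in C. japonica were lower in Dec, against 52.7% of the 25478 IDs tested in both species. Of the 126 higher IDs tested, 88.1% were higher in Dec, against 46.5%. The median differences in C. japonica were -0.36 and 0.66. EVM0026928 was at 28.8, 149 and 160 TPM in the Dec libraries of C. japonica, against 8.91, 25.2 and 17.3 TPM in its Nov libraries (log2 difference 2.41 ± 0.91, limma adjusted p = 0.86). EVM0008064 lay at or below 2.19 TPM in all 6 C. japonica libraries. The 4 named IDs were not called for a difference between the species: their differences of differences had limma adjusted p from 0.12 (EVM0008064) to 0.27 (EVM0022027). The values themselves were large, at -7.01 ± 2.26 (SE) for EVM0008064 and -6.40 ± 2.17 for EVM0004647. They were 2.74 ± 0.99 for EVM0026928 and 2.79 ± 1.23 for EVM0022027. The missing calls therefore do not show that the step was alike in both species.

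On deposited TPM, a test of the species difference itself called 253 of 31584 IDs (0.801%). The Dec minus Nov difference was more negative in C. azalea for 248 of them (0.785%) and more positive for 5 (0.0158%). On this scale the median difference of all IDs tested was -0.54 in C. azalea and -0.09 in C. japonica. How far this general shift entered the calls was not tested. Of the 253 IDs, 238 were called lower in C. azalea, against 15.5% of the 27492 IDs tested there. The species difference contains the same C. azalea values, so this overlap was largely set by the choice. EVM0007233 averaged 0.0942 ± 0.163 TPM in the Dec leaves and 165 ± 97.9 TPM in the Nov leaves of C. azalea (SD, n = 3 each) and was listed at 0 TPM in all 6 libraries of C. japonica, a difference of differences of -7.00 ± 1.38 (SE, limma adjusted p = 0.0035). EVM0016163 averaged 6.88 ± 0.512 TPM in the Dec leaves and 901 ± 409 TPM in the Nov leaves of C. azalea, and 15.9 ± 8.48 TPM in the Dec leaves and 16.6 ± 10.9 TPM in the Nov leaves of C. japonica, a difference of -6.77 ± 1.49 (limma adjusted p = 0.012, and 0.052 after scaling). EVM0036012 and EVM0041525, with differences of 4.25 and 3.82 (limma adjusted p = 0.043 for both), were listed at 0 TPM in all 6 C. azalea libraries. They come into the list through their lower Dec levels in C. japonica, and after scaling, with differences of 4.14 and 3.71, neither was called (limma adjusted p = 0.074 for both). After scaling 98 IDs were called (0.31%), of which 18 (0.057%) were more positive and 80 (0.253%) more negative in C. azalea. With C. azalea Dec 3 left out there were 66 calls (0.209%), of which 3 (0.0095%) were more positive and 63 (0.2%) more negative.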

How the data were processed

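RNA of the leaves was taken with a plant kit and made into Illumina libraries, per the labels' protocols. The authors deposited TPM per ID, and each column sums to 1000000 over 41982 IDs. HISAT2 2.1.0 and StringTie 1.3.6 are named per the submitters' processing notes, while the genome build is not given in the sources used here. TPM keep no depth, so depth is unknown and no counting interval is given.

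Columns were matched to libraries by the code in the sample title. Tests used limma 3.58.1 in R 4.3.3 on log2(TPM + 1), with 12 month means and a mean-variance trend over all 36 libraries, for IDs reaching 1 TPM in 3 libraries or more. Tests were two-sided, and p-values were adjusted (Benjamini-Hochberg) across every ID tested. Median-of-ratios scaling used the 21069 IDs above 0 TPM in all 36 columns. The species difference was fitted on the 72 leaf libraries. On simulated data for Dec against Nov, 51% of 100 IDs changed by 1.5 and 94% of 100 changed by 3 (log2) were recovered, with 13 false calls among 27151 IDs. Recovery was 43% and 79% for C. japonica (10 false calls among 28801 IDs) and 23% and 78% for the species difference (7 among 31027). The simulated noise was independent between IDs, had the same spread in every month and held no shift common to a library. These false calls therefore do not cover a shift in composition such as that of Dec 3.

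Named IDs are the 2 with the largest rise and the 2 with the largest fall among those called under all 3 settings, with groups that do not overlap and 5 TPM or more as the mean of the higher month. For the species difference they are the 2 largest in each direction with 5 TPM or more in any of the 4 group means, and for Dec 3 the 2 with the largest excess over the other Dec libraries. EVM0014233 and the lists of 31 and 86 IDs were chosen after their values were seen. The comparison, its members and its rules were chosen with earlier results of these data known. The labels do not say whether replicate numbers pair the months, and the main fits treated the libraries as unpaired.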

Additional observations from a re-analysis of the deposited data

Results flagged for a closer look

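On deposited TPM, the step from Nov to Dec differed between the species in a test of the difference itself for 253 IDs. Most of them were more negative in C. azalea. After scaling 98 IDs were called, 80 more negative and 18 more positive in C. azalea, and 66 were called without C. azalea Dec 3. For EVM0007233 (-7.00 on the log2 scale, C. azalea minus C. japonica) and EVM0016163 (-6.77) the call rests on a fall in C. azalea, with C. japonica Dec minus Nov differences of 0 and 0.05. EVM0007233 remained called in all 14 alternatives run, with limma adjusted p of at most 0.043, and EVM0016163 in 11 of 14. For EVM0036012 (4.25) and EVM0041525 (3.82) the value is the C. japonica difference alone, since both IDs are listed at 0 TPM in the Dec and Nov libraries of C. azalea. Each of these calls was lost in 11 of 14 alternatives, with limma adjusted p of up to 0.19, while the differences stayed between 3.39 and 5.74 for EVM0036012 and between 3.01 and 5.09 for EVM0041525. The other 3 IDs with a positive difference (2.60 to 3.59) were higher in Dec in C. azalea, by 1.88 to 2.76.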

How the results depend on the processing

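The 4 named IDs of the C. azalea comparison kept their direction and their call in all 19 alternatives run for each, with the log2 difference ranging from 3.71 to 5.95 for EVM0026928, 2.77 to 4.30 for EVM0022027, -8.16 to -5.94 for EVM0008064 and -7.65 to -6.59 for EVM0004647. The naming rule required calls on deposited TPM, after scaling and without Dec 3, so part of this stability was set by the choice. The other alternatives refit the same values. The counts were less stable. All, higher and lower calls numbered 2091, 695 and 1396 after median-of-ratios scaling, 1732, 637 and 1095 after quantile normalization, and 1523, 512 and 1011 with scaling and Dec 3 left out. They were 2900, 346 and 2554 without the 10 IDs of Dec 3, and a pseudocount of 5 gave 2044 in all and 1927 lower. Fitting only the 6 libraries gave 349 higher calls. Leaving out each of the 6 Dec and Nov libraries in turn gave 1573 to 5827 calls in all, 127 to 161 higher and 1412 to 5683 lower. Without Jan 1 there were 4527 calls in all, 186 higher and 4341 lower. Among these fits, the count in all fell to 1573 without Dec 3 and to 2641 without Nov 3 (2514 lower). The median difference of all IDs was -0.046 after scaling, 0.038 after quantile normalization and -0.029 with scaling and Dec 3 left out. With 1 Dec or Nov library left out it was -0.67 to -0.31. With the replicate number as a block, 4268 IDs were called in the fit of 36 libraries, and 303 were called higher in the fit of 6, and same-numbered Dec and Nov libraries deviated together with r of 0.07, -0.04 and -0.20 only. In C. japonica 0 IDs were called after scaling and 2 without Feb leaf 1 and Jan leaf 3. With 1 Dec or Nov library of C. japonica left out, 0 to 86 were called, the highest without Dec leaf 1. The species difference had 98 calls after scaling and 55 with scaling and Dec 3 left out. With 1 Dec or Nov library of either species left out, it had 66 to 591 calls. The lowest of these came without C. azalea Dec 3 and the highest without C. azalea Dec 2. Among lower calls, the share highest in Jun was 29.5% after scaling and 21.6% without Dec 3, and the share at 5 to 50 TPM was 54.7% and 57.0%. Among higher calls, the share highest in Jan was 25.6% and 47.8%. The median Jan minus Oct difference of the higher IDs was 0.25 after scaling. On deposited TPM without Jan 1 it was 0.90, and that of the lower IDs -0.32, against 0.38 for all IDs. The cause of these changes was not tested.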

Other observations

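In C. azalea, 39 of 41982 IDs were listed at 0 TPM in all 3 Dec libraries and at 1 TPM or more in all 3 Nov libraries. Their Nov means reached up to 21.7 TPM, and 0 IDs showed the opposite. With Dec 3 set aside, 46 IDs were listed at 0 TPM in both remaining Dec libraries and at 1 TPM or more in all 3 Nov libraries. Setting a library aside drops a condition, so this count could not fall below 39 and is no check of it. The opposite was not counted without Dec 3. A value of exactly 0 in a table without counts can be a failed estimate, so no fold is given for these IDs.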
